A study of Mus musculus with 4 samples.

Results

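The tripartite motif (TRIM) proteins were examined in bone marrow cells after lipopolysaccharide (LPS). The members were all genes whose single annotated symbol began with Trim and a digit, each read from 1 probe set, which gave 59 of the 19938 named genes on the array. Bone marrow RNA of C57BL/6N mice was hybridised to 4 GeneChip Mouse Gene 1.0 ST arrays, 1 per sample. The control mice received phosphate-buffered saline (PBS) once into the peritoneal cavity, and the others received 50 µg LPS, a mixture from Escherichia coli K12 and Salmonella minnesota, by the same route. Marrow was collected 8 h later, and the groups held PBS replicates 1 and 3 and LPS replicates 1 and 2. The labels give no age, genetic change or sorting of the cells, and do not say whether each sample was 1 mouse. The p-values therefore measure the spread between these samples, which may be technical.

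TRIM proteins are built from a RING finger, B-box zinc fingers and a coiled coil, followed by a variable end that often binds the target. Through the RING finger most of them act as E3 ubiquitin ligases, which pass ubiquitin from a conjugating enzyme to a substrate. Part of the family is induced by interferons and takes part in antiviral defence and in the control of innate immune signalling, while other members work in chromatin, muscle, neurons or red cell precursors. In macrophages, LPS is sensed by Tlr4, whose adaptor Ticam1 leads to interferon beta. The question put here is how the interferon-linked members compared with the rest of the family after LPS.

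Values are log2 expression from RMA, so a difference of 1 is a doubling. The array medians lay between 8.01 and 8.03, and across genes, which are not independent replicates, arrays of a group correlated at 0.995 (PBS) and 0.997 (LPS) and arrays of different groups at 0.988 to 0.990. Markers of marrow cells were bright, with a mean log2 level of 12.5 to 12.8 over 8 neutrophil genes and 11.72 to 12.02 over 6 erythroid genes, while 6 skeletal muscle genes averaged 7.25 to 7.46. With groups of 2 the smallest two-sided p of an exact permutation test is 0.333, so each gene was tested with limma, which pools information on the spread over all genes.

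Of the 8 TRIM genes that rose after LPS, 7 were interferon-linked by the list used here, and 4 by a narrower list of 5 measured genes (Trim14, Trim21, Trim25, Trim30a and Trim34a). Of 16 interferon-linked genes listed, 12 were measured (all but Trim5, Trim30b, Trim30c and Trim34b), and 7 of these rose at a Benjamini-Hochberg adjusted p under 0.05 (limma), namely Trim30d, Trim21, Trim30a, Trim12c, Trim12a, Trim14 and Trim34a. Of the other 47 members 1 rose, the transcribed pseudogene Trim30e-ps1. No member fell by limma: 0 of 59 were lower at the adjusted threshold, and 6 were lower at an unadjusted p under 0.05 (Trim10, Trim7, Trim24, Trim38, Trim37 and Trim59), a share of 10.2% beside 8.69% of all genes. An unmoderated linear model called 0 in either direction, among the members and among all genes. Over all genes 2.39% rose and 1.27% fell, against 58.3% of the interferon-linked and 2.13% of the other members that rose. The interferon-linked list was written with earlier results of these data known, so these shares are a description and not a test. The median log2 fold change was 0.51 for the interferon-linked members (1.43-fold), -0.02 for the others and -0.01 for all genes. These are bulk samples, in which fewer cells of a type and less RNA per cell cannot be told apart, and the same holds for more of either.

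The order of the arrays, read from the same values and the same lists, showed the same contrast without a variance model. The lower LPS array exceeded the higher PBS array in 11 of the 12 interferon-linked members, and the order was the opposite in the remaining one, Trim38. Of the other 47 members 11 had both LPS arrays above and 11 had both below, and 25 overlapped. Over all genes 20.4% had both LPS arrays above and 24.5% had both below, so the 23.4% of other members in each direction lay near the background.

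The number of rising members was 3 with every probe set of the array in the fit and in the adjustment (Trim30d, Trim21 and Trim30a). It was 5 at a limma adjusted p under 0.01, and it was also lower when either LPS replicate was left out. It was 0 in the unmoderated model, which called 0 of all genes. In that model 14 of the 59 (23.7%) had an unadjusted p under 0.05, against 11.0% of all genes. Of these 14 members, 7 were interferon-linked. Trim30d, Trim21 and Trim30a passed in every other setting tried.

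Trim30d, a close relative of the Toll-like receptor regulator Trim30a, changed most. PBS replicates 1 and 3 read 9.53 and 9.57 on the log2 scale, and LPS replicates 1 and 2 read 10.82 and 10.91. The LPS arrays stood well above both PBS arrays, and the replicates of a group lay close together. Trim30d thus rose 2.49-fold, by 1.32 in log2 (SE 0.0898, 95% interval 1.11 to 1.52, limma adjusted p = 0.000196).

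Trim21, the cytosolic receptor for antibody that directs antibody-coated virus to the proteasome, was 9.59 and 9.63 in the PBS arrays and 10.62 in each LPS array. The groups were separated by far more than their spread, with a log2 fold change of 1.01 (SE 0.0863, interval 0.81 to 1.21, limma adjusted p = 0.000624), or 2.01-fold. Trim30a, which restrains Toll-like receptor signalling to NF-kappaB by acting on the kinase adaptors Tab2 and Tab3, had 11.53 and 11.67 after PBS and 12.59 on each LPS array. Its log2 fold change was 0.99 (SE 0.0928, interval 0.77 to 1.20, limma adjusted p = 0.00103), or 1.98-fold. The genes of its targets did not pass: Tab2 had a log2 fold change of -0.06 and Tab3 one of -0.28 (limma adjusted p = 0.837 and 0.192).

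Trim12a and Trim12c are rodent relatives of the retroviral restriction factor Trim5. Trim12c had 9.04 and 8.82 in PBS replicates 1 and 3 and 9.63 on both LPS arrays, a log2 fold change of 0.70 (SE 0.103, limma adjusted p = 0.00998). Trim12a had 10.95 and 11.03 after PBS and 11.63 and 11.60 after LPS, a log2 fold change of 0.63 (SE 0.0888, limma adjusted p = 0.00839). In both genes the groups did not overlap. With every probe set in the fit neither passed (limma adjusted p = 0.0679 for Trim12c and 0.0538 for Trim12a, the highest over the settings with a moderated fit, where the lowest were 0.00148 and 0.00407).

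Smaller rises were measured for Trim14 and Trim34a. Trim14, an adaptor at the mitochondrial antiviral protein Mavs, had 9.51 and 9.40 after PBS and 9.92 and 10.03 after LPS, a log2 fold change of 0.51 (SE 0.0949, limma adjusted p = 0.0289). Trim34a had 8.97 and 9.06 after PBS and 9.56 and 9.50 after LPS, a log2 fold change of 0.51 (SE 0.0898, limma adjusted p = 0.0240). Neither overlapped between groups, but both calls depended on the replicates. Without LPS replicate 2 neither passed, and without LPS replicate 1 Trim34a did not pass either. Over all moderated settings the limma adjusted p ran from 0.0186 to 0.136 for Trim14 and from 0.0168 to 0.1002 for Trim34a.

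The other interferon-linked members did not pass. Trim25, the ligase that helps activate the RNA sensor encoded by Ddx58 (RIG-I), had 10.14 and 9.91 after PBS and 10.46 and 10.53 after LPS. Its log2 fold change was 0.47 (interval 0.23 to 0.72, limma adjusted p = 0.0592), and PBS replicate 1 lay nearer to the LPS arrays than PBS replicate 3 did. Without PBS replicate 1 it was 0.59, and it passed there and with an intensity trend and robust prior (limma adjusted p from 0.0146 to 0.208 over the moderated settings).

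Trim26, a regulator of the interferon beta pathway, read 8.79 and 8.55 after PBS and 8.94 and 9.05 after LPS, a log2 fold change of 0.33 (interval 0.07 to 0.58). Trim56, an antiviral ligase linked to RNA and DNA sensing, read 11.29 and 10.97 against 11.37 and 11.41, or 0.26 (interval -0.02 to 0.53). Trim6, which makes free ubiquitin chains that activate the kinase encoded by Ikbke, read 7.05 and 6.99 against 7.21 and 7.14, or 0.16 (interval -0.05 to 0.36). Limma adjusted p-values of these 3 were 0.194, 0.353 and 0.463, although in each of them the groups did not overlap. The values of Trim26 and Trim56 depended on the PBS replicates: they were 0.45 and 0.42 without PBS replicate 1, and 0.21 and 0.10 without PBS replicate 3. Trim38, which limits signalling from the adaptor Ticam1, had 5.69 and 5.66 after PBS and 5.33 and 5.50 after LPS. This was the lowest fold change of the interferon-linked members at -0.26 (limma adjusted p = 0.241), on a probe set whose mean did not exceed the 95th percentile of the olfactory receptor genes (7.02), a level used here to mark dim probe sets.

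**Figure D1:**
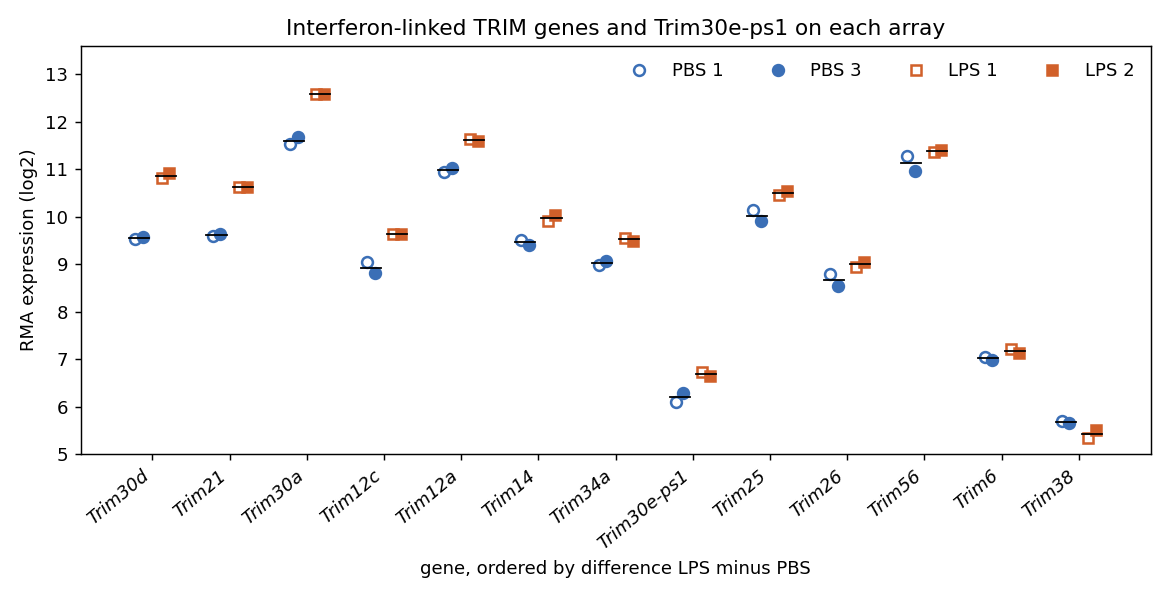
Log2 RMA expression (vertical axis) of the 12 measured interferon-linked TRIM genes and Trim30e-ps1 on each array, with open and filled blue circles for PBS replicates 1 and 3, open and filled orange squares for LPS replicates 1 and 2, and a black line for each group mean. The LPS squares lie above the PBS circles in every gene shown but Trim38, with the widest gap for Trim30d (9.55 against 10.87).

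Most of the rising members are neighbours. In the RefSeq gene table for GRCm38.p6, which is used here for names and order, a run of 21 genes from Trim6 to Trim30e-ps1 holds 11 Trim genes. Of these, 7 were measured by a probe set of their own and 6 rose, in order Trim34a, Trim12a, Trim12c, Trim30a, Trim30d and Trim30e-ps1. Trim6, at the edge of the run, did not pass. Outside the run 2 of 52 members rose, Trim21 and Trim14, and over all genes 2.39% rose. The genes of the run are similar in sequence, and the probe sequences were not used here, so a probe set of one Trim12 or Trim30 gene may also have read its relatives, and the 6 rises may not be independent measurements. Without all Trim5, Trim6, Trim12, Trim30 and Trim34 genes, 2 of 6 interferon-linked members rose and their median was 0.40.

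The windows around the transcript starts were read for a motif that the rising members with a window shared. The part of this motif in the rises was not tested. RefSeq windows for GRCm38.p6, from 250 bases before the start to 50 bases from it on, were found for 46 members, and 9 of these had more than 1 start. They were searched on both strands for the interferon-stimulated response element, written as GAAANNGAAA (TTTCNNTTTC on the other strand). The motif was chosen after the values had been seen, and a match describes letters, not a bound site. All 6 rising members with a window held it, against 2 of the 40 members that did not pass, Trim26 and Trim2. It occurred in 3.44% of all 32851 windows and in 3.99% of all genes with a window. The gamma-activated site, written as TTCNNNGAA and identical on both strands, was in 0 of the 6 and 5 of the 40, against 9.55% of genes, and no member held both motifs. Trim14 and Trim30e-ps1 had no window.

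The stretches follow 5′ to 3′ on the strand of the gene, with each match and 25 bases on either side where the window allows, and the matches in capitals. The window of Trim30d is chr7:104507800-104508099, that of Trim30a chr7:104465144-104465443, with a second start at chr7:104446076-104446375, and that of Trim21 chr7:102565433-102565732, all on the minus strand.
Trim30d: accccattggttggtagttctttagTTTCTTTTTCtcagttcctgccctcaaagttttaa
Trim30a, first start: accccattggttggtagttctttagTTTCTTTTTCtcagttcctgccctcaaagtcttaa
Trim30a, second start: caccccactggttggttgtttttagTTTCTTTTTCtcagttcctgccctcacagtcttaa
Trim21: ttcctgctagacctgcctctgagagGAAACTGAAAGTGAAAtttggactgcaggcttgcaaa
In Trim21 a pair of matches overlap and form a longer run of the repeat, at 13 to 28 relative to the first transcribed base, counted as 0. In Trim30d and the first start of Trim30a the matches began at -41 and -36.

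Trim12a (chr7:104315446-104315745, minus strand), Trim12c (chr7:104353300-104353599, minus strand) and Trim34a (chr7:104244207-104244506, plus strand) each held 1 match.
Trim12a: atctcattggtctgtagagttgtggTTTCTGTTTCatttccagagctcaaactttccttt
Trim12c: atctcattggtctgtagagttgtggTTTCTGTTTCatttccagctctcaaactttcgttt
Trim34a: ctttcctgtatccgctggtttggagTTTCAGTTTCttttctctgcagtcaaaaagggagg
These matches began at 10, -29 and 10 relative to the start. The windows of Trim30a and Trim30d were identical in 93.9% of 294 aligned positions and those of Trim12a and Trim12c in 94.6% of 261, so the matches within each pair are not independent. The members that held the motif and did not pass were Trim26, with overlapping matches from -160 to -145 (chr17:36836896-36837195, plus strand), and Trim2, with a match from 28 to 37 at the fifth of its starts (chr3:84212789-84213088, minus strand). The match of Trim2 thus lay as near to the start as those of the rising genes.
Trim26: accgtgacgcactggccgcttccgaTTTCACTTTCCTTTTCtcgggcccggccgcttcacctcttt
Trim2: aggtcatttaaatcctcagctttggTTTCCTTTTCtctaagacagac

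**Figure D2:**
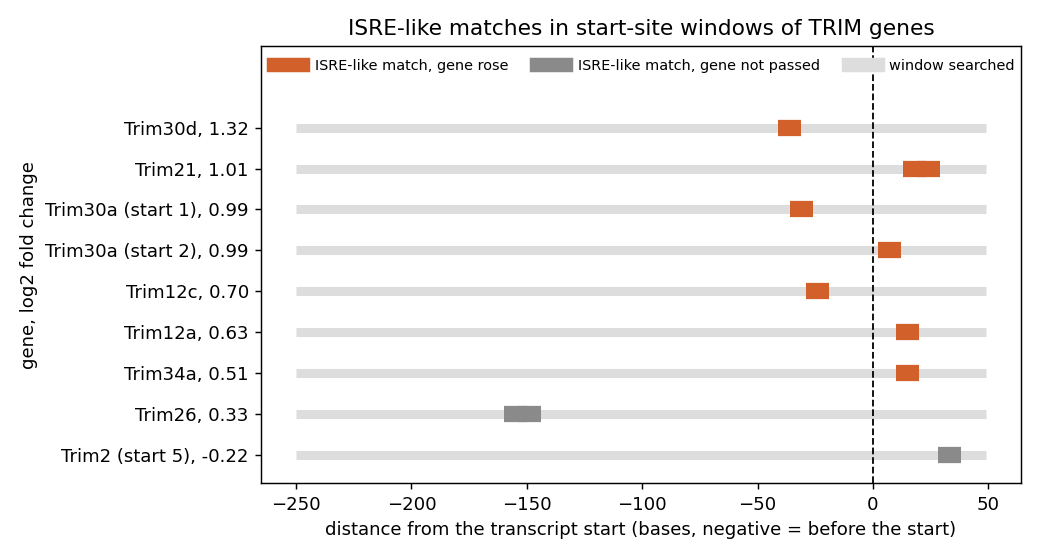
Position of GAAANNGAAA matches on either strand (coloured blocks) in the start-site windows (grey bars, distance from the transcript start in bases) of the 8 members that held one, with the log2 fold change beside each name. The blocks of the 6 rising genes (orange) lie between -41 and 28, and those of the genes that did not pass (grey) between -160 and -145 for Trim26 and between 28 and 37 for Trim2.

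Trim30e-ps1 stood on a dim probe set. It had 6.09 and 6.29 after PBS and 6.72 and 6.65 after LPS, so the groups did not overlap, and the log2 fold change was 0.49 (SE 0.101, limma adjusted p = 0.0439). RefSeq lists it as a transcribed pseudogene, and its mean did not exceed the 7.02 of olfactory receptor genes. It lost its call without PBS replicate 1, LPS replicate 1 or LPS replicate 2, and with every probe set in the fit (limma adjusted p from 0.0125 to 0.157 over the moderated settings). Without it 0 of the 46 other members rose by limma. At an unadjusted limma p under 0.05, 6 of the 46 differed in either direction, beside 15.8% of all genes.

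Members with roles in red cell precursors had lower values after LPS without passing. Trim10, which is needed for terminal erythroid maturation, had 10.96 and 10.79 after PBS and 10.47 and 10.55 after LPS. Its groups did not overlap, and its log2 fold change of -0.37 (interval -0.60 to -0.14, limma adjusted p = 0.106) was the lowest of all 59. It passed only without PBS replicate 3 (limma adjusted p = 0.0466, with up to 0.366 in the other moderated settings). Trim58, which acts in erythroblasts on the motor protein dynein, read 9.72 and 9.55 after PBS and 9.43 and 9.46 after LPS, again without overlap, a log2 fold change of -0.19 (interval -0.42 to 0.04, limma adjusted p = 0.414). Of the erythroid markers 0 of 6 measured passed by limma. Of these 6, 2 were lower at an unadjusted p under 0.05 (8.69% of all genes were), 5 had no overlap and were lower (24.5% of all genes), their median was -0.21, and their mean level was 12.02 and 11.88 after PBS and 11.72 and 11.80 after LPS. The part of the erythroid markers in the values of Trim10 and Trim58 was not tested.

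Of the chromatin members, which form the TIF1 group of transcriptional co-regulators, 0 of 4 passed by limma. All 4 fold changes were below 0, as were 10468 of all 19938 genes. Trim28, the corepressor recruited by KRAB zinc finger proteins, had 10.78 and 10.51 after PBS and 10.56 and 10.63 after LPS, so its groups overlapped (log2 fold change -0.05, interval -0.31 to 0.21). Trim24 had -0.25 (interval -0.46 to -0.05) and Trim33 -0.21 (interval -0.44 to 0.01), with limma adjusted p-values of 0.215 and 0.345. Both had their LPS arrays below their PBS arrays, as had 24.5% of all genes. Trim66 had -0.03.

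Signalling regulators outside the interferon list held 0 calls among 10, with a median of -0.07. Trim27, a regulator of kinase and NF-kappaB signalling, was nearly flat at 9.87 and 9.84 after PBS and 9.88 and 9.87 after LPS (log2 fold change 0.02, interval -0.18 to 0.22). The lowest was Trim37, a ligase of peroxisomes and centrosomes, at -0.24 (interval -0.45 to -0.03, limma adjusted p = 0.254). Trim8, which enhances NF-kappaB signalling, had 0.05 and Trim31 -0.02, both with overlapping groups.

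The remaining groups held 0 calls as well. Among the members with NHL repeats (0 of 4), Trim3 had 9.34 and 9.42 after PBS and 9.30 and 9.36 after LPS, and Trim2 had the lowest fold change at -0.22 (limma adjusted p = 0.340). Of the membrane-anchored pair, Trim59 had 10.44 and 10.36 after PBS and 10.15 and 10.19 after LPS (log2 fold change -0.22, interval -0.43 to -0.02, limma adjusted p = 0.268). Trim13, anchored in the endoplasmic reticulum, had the widest interval of the family, from -0.42 to 0.48, because its PBS replicates read 7.88 and 8.51.

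Members listed here for striated muscle (0 of 4) and those listed here for a microtubule-binding COS box (0 of 4) had medians of 0.08 and 0.05. Trim54 had -0.02 and Trim67 0.10. In each of these groups 2 of 4 members did not exceed the dim level, and 0 of 6 skeletal muscle markers passed. Over the whole family 16 of 59 members were dim in this sense, 15 of them outside the interferon list. For the 17 members in no role group the range was -0.28 (Trim7) to 0.49 (Trim30e-ps1), with Trim41 at 0.10 (limma adjusted p = 0.674).

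**Figure D3:**
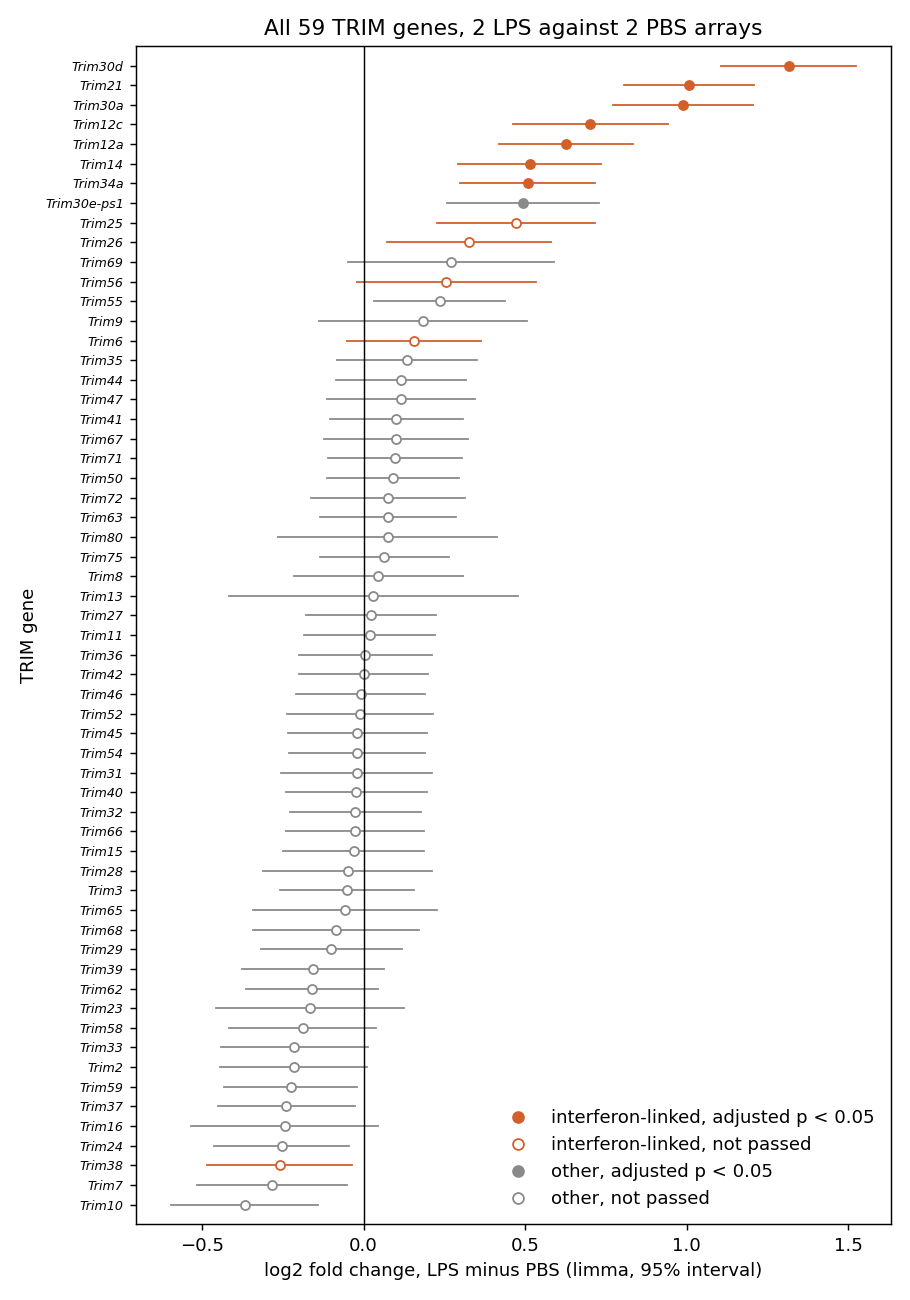
Log2 fold change, LPS minus PBS, with 95% limma intervals (horizontal axis) for all 59 TRIM genes in order of value, with interferon-linked members in orange, others in grey, and filled points for an adjusted p under 0.05. The 8 filled points run from 0.49 to 1.32, and the open points from -0.37 to 0.47.

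Genes of the pathways in which TRIM ligases act were read from lists that were likewise written with earlier results known. Of 21 measured genes of nucleic acid sensing 8 rose and 0 fell by limma, beside 2.39% and 1.27% of all genes. Their median was 0.24, and 1 was lower at an unadjusted limma p under 0.05, Tab3 (8.69% of all genes were). The nucleic acid sensor gene Zbp1 (2.48), the transcription factor gene Irf7 (1.85) and the RNA sensor gene Ifih1 (1.47) changed most, and Ddx58, whose product Trim25 acts on, rose by 1.19, from 10.39 and 10.47 to 11.59 and 11.66. The adaptor Mavs (-0.17), the kinase Tbk1 (0.19) and Irf3 (0.02) did not pass.

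For ubiquitin and ISG15 conjugation and removal, 4 of 20 measured genes rose by limma, beside 2.39% of all genes, with a median of 0.05. At an unadjusted limma p under 0.05, 5 were higher (7.11% of all genes were). At either level 0 were lower. The risers were Usp18 (2.18), which removes ISG15, its ligase Herc6 (1.62), its activating enzyme Uba7 (0.91) and the ubiquitin-editing enzyme Tnfaip3 (0.89). Not every ISG15 gene of the list rose: Ube2l6 had 0.22 (limma adjusted p = 0.285), and Isg15 itself was not measured. The conjugating enzymes that serve RING ligases did not pass, among them Ube2n (0.17), Ube2d1 (0.05) and Ube2d3 (0.03). Of 9 TRIM family proteins under other symbols 0 rose and 0 fell by limma. At an unadjusted limma p under 0.05, 3 were higher (Pml, Mid1 and Mefv), as were 7.11% of all genes. The interferon-induced nuclear body gene Pml had 10.73 and 10.49 after PBS and 10.90 and 11.14 after LPS (log2 fold change 0.41, limma adjusted p = 0.150), and Mid1 had 0.38 (limma adjusted p = 0.0924).

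**Figure D4:**
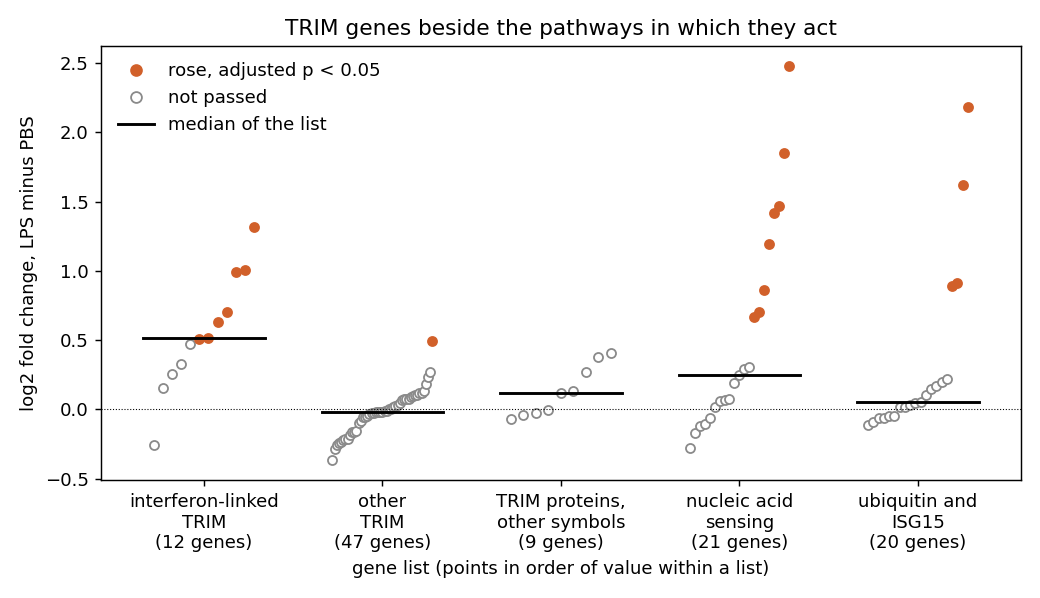
Log2 fold change, LPS minus PBS (vertical axis), of each measured gene in 5 lists, with filled orange points for an adjusted p under 0.05, open points for the others and a black line for the median. The medians are 0.51 for interferon-linked TRIM genes, -0.02 for other TRIM genes, 0.12 for TRIM proteins under other symbols, 0.24 for nucleic acid sensing and 0.05 for ubiquitin and ISG15 genes.

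Cell type markers moved in some lists beside the rise of the interferon-linked genes. Of 7 monocyte and macrophage markers 2 rose, the Fc receptor gene Fcgr1 (1.57), which is itself interferon-inducible, and Adgre1 (0.56), and their median was 0.11. Their mean level, which includes Fcgr1, was 10.10 and 10.15 after PBS and 10.44 and 10.38 after LPS. Cx3cr1, the lowest (-0.32, limma adjusted p = 0.211), Mpeg1 (0.18), Csf1r (0.11), Cd68 (-0.03) and Ccr2 (-0.09) did not pass. At an unadjusted limma p under 0.05, 3 of the 7 differed in either direction. Of 6 natural killer markers 1 rose, Prf1 (0.50), while Klrk1 had 0.43 and Nkg7 -0.39 (limma adjusted p = 0.0888 and 0.0667). The median of the 6 was 0.04, with 3 values above 0 and 3 below. At an unadjusted limma p under 0.05, 3 of the 6 differed in either direction. Neutrophil, B-cell, T-cell and dendritic cell markers had medians of -0.25, -0.15, -0.15 and -0.24 with 0 calls by limma among 8, 7, 6 and 5 genes, of which 4, 2, 0 and 3 were lower at an unadjusted p under 0.05. The dendritic cell marker Ccr9 was higher at that level (0.34, limma adjusted p = 0.234). Of all genes 8.69% were lower and 7.11% were higher at that level, 15.8% in either direction. At the adjusted threshold 2.39% of all genes rose and 1.27% fell. The part of these shifts in the TRIM values was not tested.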

How the data were processed

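The authors deposited 1 log2 value for each probe set and array, computed by RMA per the submitters' processing notes. Its version is not given in the sources used here. Of 35556 probe sets, 21789 had exactly 1 gene symbol in the platform annotation. The brightest probe set stood for a gene, which gave 19938 genes, and each TRIM member had only 1. LPS and PBS were compared by two-sided moderated tests (eBayes after lmFit, limma 3.58.1, run under R 4.3.3) on the 4 arrays together, without covariates, with 2 residual and 5.59 prior degrees of freedom. p-values were Benjamini-Hochberg adjusted over all genes, with a threshold of 0.05. Intervals are limma's 95% intervals, and SE is moderated. The fit was tested on simulated data.

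No filter on low values was applied. Precision is limited by the number of arrays. The members, the gene lists and the interferon-linked list were chosen with earlier results of these data known. Named were all members past the threshold, all interferon-linked members, the member with the highest mean of each role group, members at least 0.5 apart in log2 without overlap, and up to 3 rising and 3 falling genes of each pathway list, or its 2 brightest genes. Other genes were named after their values were seen. The alternatives concerned probe sets, low values, normalization, variance model, threshold, single replicates and the interferon list. RefSeq windows (GRCm38.p6) were searched and aligned with Python 3.11.15 and Biopython 1.88, and figures were drawn with matplotlib 3.10.9.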

Additional observations from a re-analysis of the deposited data

How the results depend on the processing

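No paired analysis was made, because the labels give replicate numbers but no pairing of PBS with LPS samples. The number of rising members (8) was 3 with all probe sets in the fit, 0 in the unmoderated linear model, 5 at an adjusted p under 0.01 and 2 without the alike neighbouring genes, and it ran from 5 to 9 when 1 array was left out. Of the interferon-linked members (7 rising), 3 rose with all probe sets, 0 in the unmoderated model, 4 of 5 in the narrow list and 2 of 6 without the alike genes. Of the other members (1 rising), 0 rose with all probe sets, with the filter on dim genes, in the unmoderated model, at an adjusted p under 0.01, without the alike genes and without Trim30e-ps1 (a setting added after seeing the data), 4 rose beside the narrow list, and 0 to 1 with 1 array left out. Lower members numbered 0 to 1 with 1 array left out, the 1 being Trim10. The median of interferon-linked members was 0.40 with the broad list and also without the alike genes, and ran from 0.499 to 0.578 with 1 array left out. That of other members ran from -0.032 to 0.020. Among 21 named members and 271 pairs of member and setting, 242 kept their direction and side of the threshold, 22 lost a call, 4 gained one and 0 called values changed sign. The causes of these changes were not tested. The number of arrays limits the precision throughout.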

Other observations

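Probe sets that name several genes were not used above, and 6 of them name a Trim gene. In the fit over all probe sets, the one shared by Trim5, Trim12c and Trim12a had 10.52 and 10.57 after PBS and 10.91 and 10.95 after LPS (log2 fold change 0.38, limma adjusted p = 0.172). A further one shared by Trim5 and Trim12c had 10.34 and 10.26 after PBS and 10.71 and 10.81 after LPS (0.46, limma adjusted p = 0.138). The probe set of Trim30b and Gm38525 had 9.85 and 9.79 after PBS and 10.03 and 10.08 after LPS (0.23, limma adjusted p = 0.374). In none of these 3 did the groups overlap, and none passed. The probe sets of Trim17 with H2aw (-0.06), of Trim60 with Trim61 (0.02) and of the Trim43 genes (0.07) had fold changes near 0.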
